A study of Homo sapiens with 2 samples.

Results

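Oncofetal genes are active in the foetal liver, quiet in the healthy adult liver and often active again in hepatocellular carcinoma (HCC). A set of 10 such genes, namely AFP, GPC3, DLK1, H19, IGF2, IGF2BP1, IGF2BP3, LIN28B, SALL4 and PEG10, was taken by gene symbol from the 58174 genes in the deposited tables. Each symbol matched 1 gene. Of the 10 genes, 8 reached a level of at least 1 TPM, a unit of transcript abundance corrected for gene length, in either library and 2 did not.

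The data came from PLC-8024, a human HCC cell line, as 1 RNA-seq library of control cells (PLC-8024-CTR, genotype Control) and 1 library of cells made to overexpress human growth differentiation factor 1 (PLC-8024-GDF1). GDF1 is a secreted ligand of the TGF-β superfamily. The gene was delivered by virus and stably transduced cells were selected with puromycin, so the comparison is between 2 populations of 1 cell line kept in culture. No treatment beyond selection is given for these libraries, and none of the differences below has a replicate check.

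AFP and GPC3 are the proteins best known as markers of HCC in blood and tissue. H19 and IGF2 are neighbouring imprinted genes, meaning that 1 parental copy is normally silenced, and DLK1 and PEG10 are imprinted as well. LIN28B, IGF2BP1 and IGF2BP3 are RNA-binding proteins of the embryo. LIN28B blocks the maturation of let-7, a microRNA family that represses transcripts carrying a match to its seed, and the transcripts of several oncofetal genes are known let-7 targets.

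The introduced gene and the identity of the cells were examined first. Where a pair of TPM values is given, PLC-8024-CTR comes first. GDF1 had 2.1 and 4.64 TPM, and CERS1, whose exons include the GDF1 coding sequence, had 13.3 and 9612 TPM. All 13 hepatocyte markers reached 1 TPM, with summed levels of 13000 and 8550 TPM, and 7 of them fell past 2-fold. The epithelial keratins KRT8 (1424 and 1777 TPM) and KRT18 (1005 and 1224 TPM) were abundant in both libraries. Of the 6 epithelial markers, 5 reached 1 TPM. CDH1, the gene of E-cadherin, fell from 10.4 to 0.329 TPM (log2 change -3.10), KRT7 (3.0 and 7.98 TPM) and KRT19 rose past 2-fold, and EPCAM was listed at 0.172 TPM and at 0. Markers of other cells gave sums of 3.80 and 2.76 TPM for 7 fibroblast genes, 23.5 and 22.4 TPM for 5 endothelial genes, nearly all PECAM1, and 332 and 228 TPM for 6 leukocyte genes, nearly all LYZ and CD68. Erythroid genes gave 77.5 and 35.9 TPM, from HBA1 and HBA2, while HBB, PTPRC, VWF and all 6 germ cell genes were listed at 0 in both libraries.

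The short sequences that link several of these genes to let-7 are given here, because the transcripts fall into groups by them. Mature let-7 sequences from RefSeq (GRCh38.p14) are shown with the seed, bases 2 to 8, in capitals. All 9 family members in that table, miR-98 included, carried the same seed.
hsa-let-7a-5p: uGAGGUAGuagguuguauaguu
hsa-let-7g-5p: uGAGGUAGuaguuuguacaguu
hsa-miR-98-5p: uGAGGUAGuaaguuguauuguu

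The letters CTACCTC, which pair with this seed, were searched in the 3′ UTR of each gene, on the sense strand and in the coding transcript with the longest 3′ UTR. Of the 9 protein-coding oncofetal genes, 4 held a match. LIN28B and IGF2BP1 held 4 matches each, and IGF2BP3 and SALL4 held 1 each. AFP, GPC3, DLK1, IGF2 and PEG10 held none, and H19, a non-coding RNA, has no UTR. Over all 19383 genes with a 3′ UTR, 10.5% held at least 1 match and 12 genes (0.062%) held 4 or more. These shares were not matched for length. The searched 3′ UTR had 4549 bases in LIN28B and 6701 in IGF2BP1, against a median of 1200 over these genes. One site of each gene is shown on GRCh37, with the seed match in capitals. In each of the 4 the match is followed by an A, as in 7 of the 10 sites.
LIN28B, chr6:105526688-105526709, plus strand: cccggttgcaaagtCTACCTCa
IGF2BP1, chr17:47131061-47131082, plus strand: agcagtgctagtaaCTACCTCa
IGF2BP3, chr7:23351414-23351435, minus strand: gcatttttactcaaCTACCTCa
SALL4, chr20:50399462-50399483, minus strand: aagctttaatttatCTACCTCa

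Of the oncofetal genes, 4 fell past 2-fold in PLC-8024-GDF1, among them the 3 that were most abundant in PLC-8024-CTR. The log2 change divides TPM + 1 of the GDF1 library by TPM + 1 of the control library, which understates weakly expressed genes, and a change past 2-fold is one over 1 in size. These 4 of the 8 genes with at least 1 TPM were H19, GPC3, AFP and IGF2BP3, while none rose past 2-fold and 4 stayed within it. Over all 14929 genes with at least 1 TPM, 9.61% were lower and 4.82% were higher past 2-fold. At a threshold of 1.5-fold the count of oncofetal genes was again 4 lower and none higher, against 25.3% and 11.5% of all genes. The median change of the 8 genes was -0.82, and that of all genes was -0.20, with 6 of the 8 below it. With the GC trend removed the median of the 8 genes was -0.53, and that of all genes was -0.008. All-gene counts were 1434 lower and 720 higher as deposited. After median scaling, which sets to 0 the median log2 ratio of genes with at least 5 TPM, they were 1022 lower and 1040 higher. Summed over the 10 genes, the level went from 630.3 to 169.6 TPM, and GPC3 and H19 made up 87.2% and 68.5% of these sums.

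**Figure D1:**
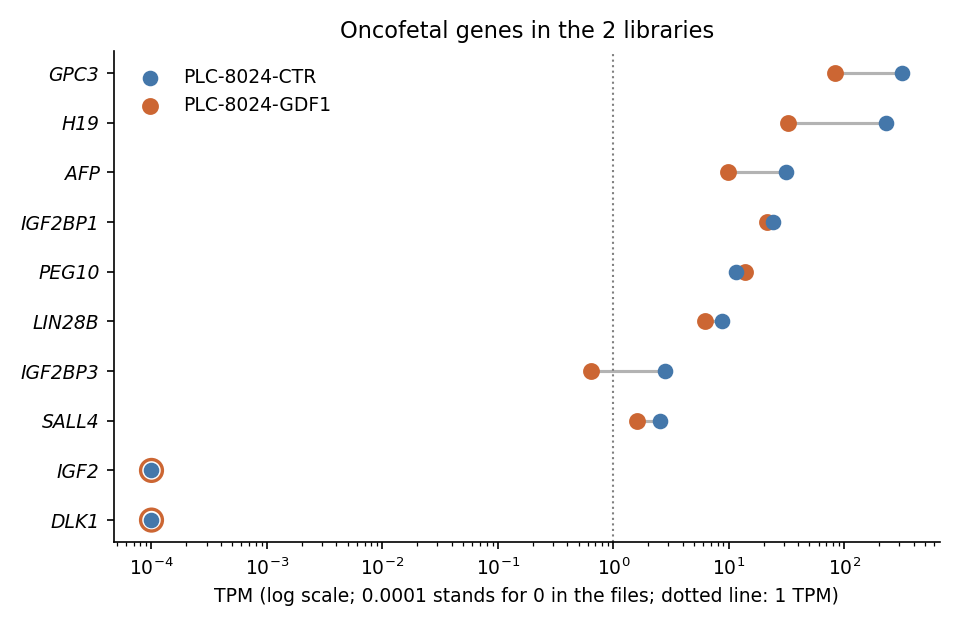
TPM (log scale) of each of the 10 oncofetal genes in PLC-8024-CTR (blue) and PLC-8024-GDF1 (orange), 1 library each, with 0.0001 standing for 0 and a dotted line at 1 TPM. GPC3, H19, AFP and IGF2BP3 lie well to the left in PLC-8024-GDF1, the pairs of IGF2BP1 and PEG10 nearly touch, and IGF2 and DLK1 lie at 0.0001 in both libraries.

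**Figure D2:**
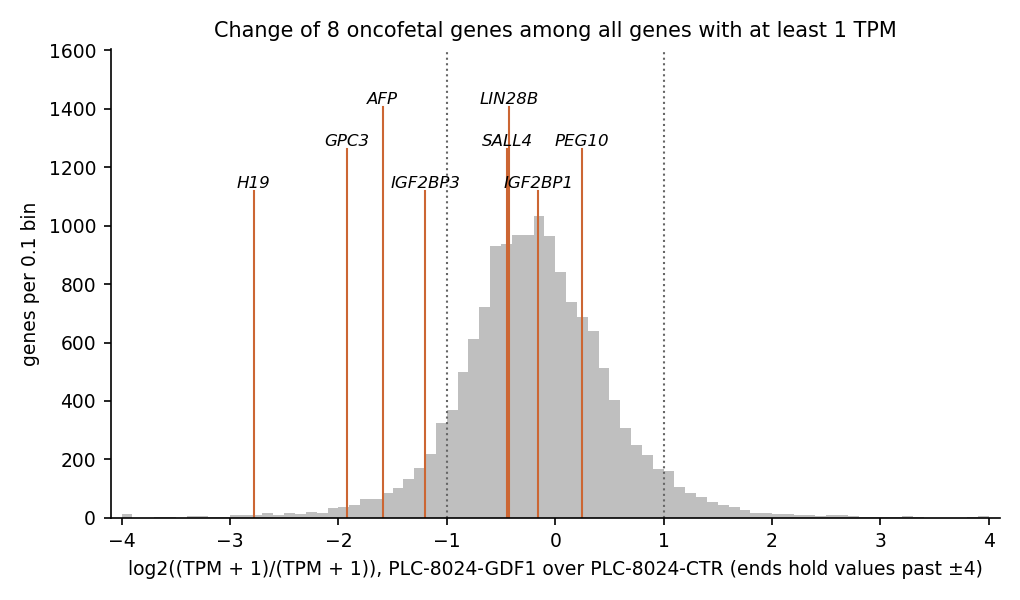
Histogram of the log2 change of all 14929 genes with at least 1 TPM (grey, genes per bin of 0.1), with the 8 oncofetal genes as orange lines and dotted lines at 2-fold. H19 (-2.78), GPC3 (-1.92) and AFP (-1.59) lie in the left tail, IGF2BP3 (-1.20) just past the line, and the other 4 genes lie among the bulk.

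Among the secreted and surface markers, GPC3 and AFP both fell. GPC3 (ENSG00000147257, chrX:132669773-133121127 on GRCh37, minus strand) encodes glypican-3, a heparan sulfate proteoglycan held at the cell surface by a lipid anchor. Its level was 317.8 TPM in control cells against 83.3 TPM in GDF1 cells. That is a log2 change of -1.92 and a plain ratio 3.81-fold lower. By level it moved from rank 427 to rank 1525 of all genes. Only 1.45% of genes with at least 1 TPM had a lower change. AFP (ENSG00000081051, chr4:74296855-74321891, plus strand), the main serum protein of the foetus and a relative of albumin, was listed at 31.4 TPM and 9.75 TPM. Its log2 change was -1.59, the plain ratio was 3.22-fold lower, and 2.71% of genes had a lower change. By qPCR in PLC-8024 cells, the paper reports that GDF1 overexpression raised liver progenitor markers, having examined AFP, EPCAM, KRT19, SOX9 and KRT7. It also reports such changes in Huh7 cells, after coculture or recombinant GDF1, and at the protein level by western blot and tumour staining. The fall of AFP in these libraries runs against the reported rise of progenitor markers. KRT19 and KRT7 rose past 2-fold, and SOX9 stayed within it (4.50 and 5.29 TPM, log2 change 0.19). EPCAM was below 1 TPM in both libraries (0.172 and 0.0001 TPM). The reason for the difference was not tested. In such a bulk culture, fewer cells that make a transcript and less of it in each cell cannot be told apart.

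The change of GPC3 was not shared by the other glypicans. GPC1 rose from 1.89 to 5.58 TPM (log2 change 1.19). GPC2 was listed at 3.30 and 3.68 TPM, GPC6 at 5.61 and 6.05 TPM, GPC5 at 1.95 and 1.14 TPM, and GPC4 at 0.074 and 0.127 TPM. Summed without GPC3, these genes gave 12.8 and 16.6 TPM, so the share of GPC3 in all glypican TPM went from 96.1% to 83.4%. Of the 28 listed genes for glypicans and the making of heparan sulfate, 23 reached 1 TPM. GPC1 was the 1 that rose past 2-fold. EXTL2, a glycosyltransferase of the heparan sulfate pathway, was the 1 that fell past it, from 4.86 to 0.538 TPM. Over all genes 4.82% rose and 9.61% fell past 2-fold. The median change of the list was -0.26. With the trend on GC content removed, no gene of this list rose past 2-fold.

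The fall of AFP was accompanied by that of its relatives in the albumin family. ALB, the gene of serum albumin and the direct neighbour of AFP, fell from 15 to 6.07 TPM (log2 change -1.18). GC, the gene of the vitamin D-binding protein, fell from 43.8 to 2.75 TPM (-3.58), and AFM was listed at 0 in both libraries. AFP made up 34.8% of the family's TPM in PLC-8024-CTR and 52.5% in PLC-8024-GDF1, although its own level fell. Of 27 listed neighbours and regulators of AFP, 22 reached 1 TPM. None rose past 2-fold and 6 fell past it (27.3%, against 9.61% of all genes), with a median change of -0.45. After median scaling 3 fell past it, against 6.85% of all genes. NR2F2, a nuclear receptor, fell from 16.5 to 3.90 TPM and FOXA2, a pioneer factor of the liver lineage, from 20.4 to 7.70 TPM. HNF4A, a master regulator of hepatocyte genes, fell from 11.4 to 5.15 TPM and is named here after its value was seen. FOXA1 (9.68 and 8.61 TPM), FOXA3 (36.9 and 41.1 TPM) and CEBPA (140.8 and 126.0 TPM) stayed within 2-fold, as did ZHX2 (9.61 and 6.72 TPM), a repressor of AFP after birth. These 4 were also chosen after their values were seen. ZBTB20, another repressor of AFP, was below 1 TPM in both libraries (0.374 and 0.111 TPM). The hepatocyte markers given above moved with AFP, with a median change of -1.02 over all 13. They ranged from AHSG (399.1 and 25.8 TPM) and TTR (7.17 and 0.340 TPM) to FGA (467.6 and 911.1 TPM), and their part in the fall of AFP was not tested.

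The AFP promoter is shown because FOXA and C/EBP factors, named above, act through such motifs. The 250 bases before the RefSeq start (GRCh38.p14, chr4:73435971-73436220, plus strand) are given with the matches in capitals. Positions count back from the start, which follows position -1.
AFP promoter: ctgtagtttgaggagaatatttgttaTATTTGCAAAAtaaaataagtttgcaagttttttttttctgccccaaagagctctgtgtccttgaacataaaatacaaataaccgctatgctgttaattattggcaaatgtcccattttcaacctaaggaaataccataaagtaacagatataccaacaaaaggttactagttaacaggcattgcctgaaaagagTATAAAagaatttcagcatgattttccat

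The letters searched on both strands were TGTTTAC or TATTTAC or TGTTTGC or TATTTGC for FOXA, TTGCNNAA for C/EBP and CAGAC for SMAD, and TATAAA was searched on the sense strand. The AFP promoter held a FOXA match at -224 (10.6% of the 35116 promoters in the table), a C/EBP match at -221 that overlaps it (9.05%) and a TATAAA at -29 (6.8%). No CAGAC was found in this window. The AFP promoter had a GC content of 31.6% and 1 CpG, against medians of 58% and 11 CpGs. Of the other oncofetal genes, H19, IGF2BP3 and LIN28B had promoters in the table, and GPC3, DLK1, IGF2, IGF2BP1, SALL4 and PEG10 had no entry. None of these promoters held a FOXA, C/EBP or TATAAA match. CAGAC was found at -219 of H19 and at -66 of 1 of the 2 LIN28B promoters, and 38.0% of all promoters held it. A match of letters describes the window and is not a measured binding site.

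H19 showed the largest change of the 8 genes. H19 (ENSG00000130600, chr11:2016396-2025782, minus strand) makes a long non-coding RNA that hosts miR-675. Control cells had 231.6 TPM and GDF1 cells 32.8 TPM, a log2 change of -2.78 and a plain ratio 7.05-fold lower. Only 57 of the 14929 genes (0.382%) had a lower change. Its rank by level went from 604 to 3101. Neither microRNA from H19 can be read from these polyadenylated RNA libraries. The mature miR-675-5p (RefSeq) is shown with its seed in capitals, since it does not share the let-7 seed.
hsa-miR-675-5p: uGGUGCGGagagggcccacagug

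Most genes around H19 did not fall with it. Within 500 kb, 13 other genes reached 1 TPM, with a median change of 0.57 and a range from -1.78 to 1.37, so each of them had a higher change than H19. TSSC4 (22.2 and 58.9 TPM), AC068580.4 (18.7 and 45.0 TPM) and TH (0.194 and 1.70 TPM) rose past 2-fold, and SYT8 (6.22 and 1.10 TPM) and TNNI2 (4.56 and 1.63 TPM) fell. MRPL23, 57.3 kb downstream, was listed at 286.7 and 406.7 TPM. These 6 neighbours were chosen after their values were seen. IGF2 (ENSG00000167244, chr11:2150342-2179621, minus strand), the foetal growth factor that shares an enhancer and an imprinting control region with H19, was listed at 0.0001 TPM, the stand-in for 0, in both libraries. INS-IGF2, which shares 1460 exon bases with it on the same strand, was listed at 0.025 TPM and at 0.

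The neighbourhoods of the other falling genes differed. For GPC3, the 3 genes within 500 kb had changes from -0.94 to -0.39 and none passed 2-fold. For AFP, 2 of 5 fell past 2-fold, ALB and COX18 (2.59 and 0.113 TPM), and the median was -0.31. For IGF2BP3, 2 of 8 fell past 2-fold, TRA2A (21.9 and 9.37 TPM) and FAM221A (5.30 and 2.01 TPM), with a median of -0.44. COX18 was the 1 neighbour of AFP with a lower change than AFP, and the neighbours of GPC3 and IGF2BP3 held none. COX18, TRA2A and FAM221A were chosen after their values were seen. By the levels in both libraries, the protein-coding genes nearest to H19 were MIEN1 (156.1 and 44 TPM), LDHA (224.6 and 54.1 TPM) and ANXA5 (156.1 and 45.7 TPM), at distances of 0.70, 0.71 and 0.73 on the scale of log2(TPM + 1) over the 2 libraries.

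The other imprinted genes mostly stayed within 2-fold, as did most of all genes (9.61% lower and 4.82% higher past it). PEG10 (ENSG00000242265, chr7:94285637-94299007, plus strand), a retrotransposon-derived gene, was listed at 11.4 and 13.8 TPM. Its log2 change of 0.25 was the 1 positive value among the 8 genes, and 76.1% of all genes had a lower change. SGCE, the imprinted gene on its other strand with 219 shared exon bases, was listed at 33.5 and 21.2 TPM. DLK1 (ENSG00000185559, chr14:101192042-101204561, plus strand), a Notch-related surface protein of foetal hepatoblasts, was listed at 0.0001 TPM in both libraries, and MEG3, the non-coding RNA of the same imprinted cluster, at 0.015 and 0.241 TPM. Of 35 listed imprinted genes, 17 reached 1 TPM and 10 were listed at 0 in both libraries. None rose past 2-fold. Only GNAS, which encodes a G protein alpha subunit, fell past it, from 584.2 to 199.8 TPM (-1.54), or 5.88% of the 17 genes. The median change was -0.41. CDKN1C, an inhibitor of the cell cycle from the chromosome 11 cluster, was below 1 TPM (0.150 and 0.095 TPM).

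The insulin-like growth factor pathway was examined because IGF2 itself was listed at 0. IGF1 was listed at 0 in both libraries as well, so neither ligand gene had a measured level. The receptor genes were listed at 1.90 and 0.755 TPM for IGF1R, 7.93 and 7.83 TPM for INSR and 21.7 and 12.9 TPM for IGF2R, the scavenger receptor for IGF2. Of 23 listed genes, 12 reached 1 TPM, with a median change of -0.60. IGFBP1, a liver-secreted binding protein, fell from 2967 to 620.8 TPM (-2.26) and IRS2, an adaptor of the insulin receptor, from 3.97 to 0.905 TPM (-1.38). IGFBP6 rose from 0.50 to 2.13 TPM (1.06), and this rise did not pass 2-fold with the GC trend removed.

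The RNA-binding proteins divided. IGF2BP3 (ENSG00000136231, chr7:23349828-23510110, minus strand), which binds and stabilises IGF2, MYC and other transcripts, fell from 2.78 to 0.647 TPM. Its log2 change was -1.20, 6.0% of genes had a lower change, and with the GC trend removed it was -0.80, within 2-fold. It shares 1521 exon bases with MALSU1 on the other strand (31.2 and 19.1 TPM), and whether reads were counted by strand is not given in the sources used here. IGF2BP1 (ENSG00000159217, chr17:47074747-47133507, plus strand), the most abundant of the 3 paralogs, was listed at 23.9 and 21.4 TPM, a log2 change of -0.15. This value turned positive, at most 0.055, under 3 other scalings. IGF2BP2 was listed at 15.7 and 10.3 TPM. Summed, the IGF2BP genes gave 42.4 and 32.4 TPM, of which IGF2BP1 made up 56.5% and 66.1%, and IGF2BP3 6.56% and 2.0%.

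LIN28B (ENSG00000187772, chr6:105384491-105531207, plus strand) stayed within 2-fold at 8.74 and 6.24 TPM, a log2 change of -0.43. With the GC trend removed the value was 0.0098. LIN28A, its paralog, was listed at 0.068 and 0.048 TPM, so LIN28B made up 99.2% of the pair in both libraries. Of 30 listed genes of the LIN28 and let-7 axis, 27 reached 1 TPM. None rose past 2-fold and 5 fell past it (18.5%, against 9.61% of all genes), with a median change of -0.53. Among those that fell were TUT4, listed as ZCCHC11, the uridylyl transferase that LIN28 recruits to the let-7 precursor (13.8 and 2.36 TPM), and E2F6, a repressor of cell cycle genes (10.7 and 1.74 TPM). HMGA1 (135.8 and 51.2 TPM) and TUT1 (14.6 and 5.78 TPM) fell as well and were named after their values were seen. HMGA2, a known let-7 target, was listed at 4.45 and 5.22 TPM, and TRIM71 at 4.79 and 3.85 TPM. HMGA2 and TRIM71 were chosen after their values were seen.

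The changes of genes with and without a let-7 match are set side by side here. The 4 oncofetal genes with a match had changes of -1.20 (IGF2BP3), -0.44 (SALL4), -0.43 (LIN28B) and -0.15 (IGF2BP1), while AFP and GPC3, with none, fell and PEG10, also with none, did not. Over all 11726 genes with a 3′ UTR and at least 1 TPM, the median change was -0.28 in the 1331 genes with a match and -0.25 in the 10395 without. These groups were not matched for UTR length or GC content. The let-7 RNAs themselves were not measured in these libraries, and a part of let-7 in the changes was not tested.

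SALL4 (ENSG00000101115, chr20:50398870-50419060, minus strand), a zinc finger factor of stem cells that recruits the NuRD complex, was listed at 2.55 and 1.62 TPM. Its log2 change was -0.44, within 2-fold, and 34.2% of genes had a lower change. Its paralogs were below 1 TPM, with SALL1 at 0.539 and 0.932 TPM, SALL2 at 0.891 and 0.708 TPM and SALL3 at 0 in both, and SALL4 made up 64.1% and 49.6% of the family. Of 22 listed SALL family and NuRD genes, 16 reached 1 TPM, with a median change of -0.23. CHD4, the remodelling subunit of NuRD, rose from 31.9 to 74.2 TPM (1.19). HDAC1, its deacetylase, fell from 86.9 to 29.9 TPM (-1.51) and CDK2AP1, a smaller subunit, from 11.8 to 4.84 TPM (-1.14).

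Other markers of HCC and of foetal liver were split in direction, with 12 changes above 0 and 12 below. Of 35 listed genes, 24 reached 1 TPM. Past 2-fold, 1 rose and 4 fell (16.7%), against 4.82% and 9.61% of all genes. The median change was 0.01, above the -0.20 of all genes. KRT19, a keratin of bile ducts and liver progenitors, rose from 4.46 to 10.9 TPM (1.13). The 3 that fell most were CAP2 (5.83 and 1.66 TPM), an actin regulator, CLTC (13.4 and 4.97 TPM), the clathrin heavy chain, and F2 (463.3 and 198.3 TPM), prothrombin. ACSL4 (59.3 and 28.2 TPM), a fatty acid ligase, was the other. With the GC trend removed, 3 rose and 1 fell past 2-fold, and the median was 0.16, against -0.008 over all genes. After median scaling it was 0.21, against -0.02.

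The log2 change of all genes moved with GC content, in which the oncofetal genes differ. With the genes split into 5 groups of 2928 by GC content, the median change went from -0.45 in the lowest group to 0.11 in the highest. LIN28B (38.0% GC in its longest transcript), AFP (39.0%) and IGF2BP3 (40.5%) lie in the lowest group. GPC3 (46.9%), IGF2BP1 (49.1%) and SALL4 (51.3%) lie in the middle group and PEG10 (44.8%) in the next lower one. H19 (63.6%) lies in the highest group, where the trend was 0.12, and its fall ran against that trend. The part of GC content in the changes of AFP and IGF2BP3 was not tested beyond removing the trend, after which AFP stood at -1.17.

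**Figure D3:**
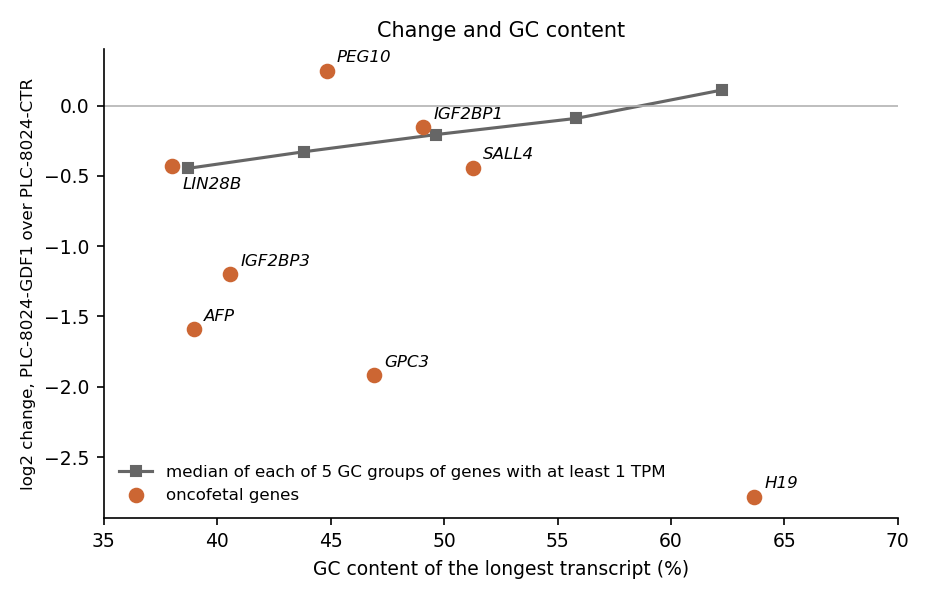
Log2 change of the 8 oncofetal genes (orange) against GC content in percent (longest transcript), with the median change of each of 5 GC groups of all genes with at least 1 TPM (grey squares). H19 and GPC3 lie far below the grey line, AFP and IGF2BP3 lie below it, and LIN28B and IGF2BP1 lie on or next to it.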

How the data were processed

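The 2 RNA-seq libraries, 1 of control and 1 of GDF1-transduced PLC-8024 cells, were made from polyadenylated RNA. Per the labels and the study's methods, the authors trimmed reads with Trimmomatic 0.36, aligned them to hg19 with HISAT2 2.1.0, quantified them with StringTie 1.3.3b and deposited TPM values, with FastQC 0.11.2 and bedtools 2.26.0 also listed. The methods name RefSeq while the identifiers are Ensembl. TPM summed to 999990 and 999995, keeps no depth and allows no counting interval.

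The log2 change used a pseudocount of 1, and calls were made where either library reached 1 TPM. With 1 library per group no test was made. Positions, exons and UTRs came from GENCODE v44 lifted to GRCh37 (55726 identifiers matched), promoters and microRNAs from RefSeq. GC trends used lowess (span 0.3). Python 3.11.15, numpy 2.4.6, pandas 2.3.3, statsmodels 0.14.6 and matplotlib 3.10.9 were used and the calls were tested on simulated data. The simulation planted changes of known size, so it checked the call rule and not the noise between these libraries.

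The oncofetal genes and lists were chosen with earlier results of these data known. Named were all 10 genes, their families, neighbours sharing exons, the 3 largest rises and 3 largest falls past 2-fold of each list, GDF1, CERS1 and the 3 genes nearest to the one with the largest change. Some single-gene values of these lists are not reported here. Alternatives were other pseudocounts, TPM minimums, scalings and a 1.5-fold threshold.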

Additional observations from a re-analysis of the deposited data

How the results depend on the processing

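Each difference rests on 2 libraries, and TPM holds no depth. No paired analysis was possible because there was 1 library per group. H19 (-2.90 to -2.58), GPC3 (-1.93 to -1.67) and AFP (-1.69 to -1.17) stayed past 2-fold in all 5 recalculations of single genes, and PEG10 (0.27 to 0.55) and SALL4 (-0.66 to -0.27) within it. IGF2BP3 ranged from -2.10 to -0.80, the latter with the GC trend removed. IGF2BP1 turned to 0.044 after median scaling (a shift of 0.21), 0.055 with the GC trend removed and 0.022 with upper-quartile scaling. LIN28B turned to 0.0098 with the GC trend removed. The cause was not tested.

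Genes counted here as fallen or risen passed 2-fold, or 1.5-fold where named. The count of oncofetal genes that fell was 3 or 4 and of those that rose 0 in 8 recalculations. The share of all genes that fell ran from 2.47% with no minimum to 16.1% as a plain ratio, with 25.3% at 1.5-fold. The share that rose ran from 1.24% to 7.88% in these 2 settings, with 11.5% at 1.5-fold. The median of the oncofetal genes was -1.15 with a pseudocount of 0.1, -1.17 as a plain ratio and -1.01 with at least 5 TPM. It was -0.71 after median scaling, -0.72 with upper-quartile scaling, -0.53 with the GC trend removed and -0.43 with no minimum. In the same order, the median of all genes was -0.23, -0.24, -0.20, -0.02, -0.04, -0.008 and 0. With a pseudocount of 0.1 and as a plain ratio alike, 8 LIN28 and let-7 genes and 4 imprinted genes fell, 1 neighbour or regulator of AFP rose, and 2 glypican genes rose and 2 fell. After median scaling, 3 neighbours or regulators of AFP and 1 SALL or NuRD gene fell and 2 other HCC markers rose. Upper-quartile scaling gave the same 1 and 2. With the GC trend removed, 0 IGF and 0 glypican genes rose, 1 SALL or NuRD gene fell with a list median of 0.070, and 3 other HCC markers rose and 1 fell. With at least 5 TPM, 0 IGF genes rose, 1 IGF gene fell and 0 glypican genes fell. Over all genes, 2315 fell and 1167 rose with a pseudocount of 0.1 and 2380 and 1167 as a plain ratio. Adding genes that overlap the exons on the same strand gave no value, because no oncofetal gene with at least 1 TPM shares exon bases with one.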
